A study of Caenorhabditis elegans with 2 samples.

Results

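The 40 genes described here encode the core machinery of the cell cycle and mitosis of the nematode Caenorhabditis elegans. They were taken as a list of known cell cycle genes out of 19973 protein-coding genes on the 5 autosomes and X. All 40 names were found in the annotation. The list was chosen with earlier results of these data known, so the choice was not blind to the peaks. For each gene, peaks of CEH-31, a transcription factor with a Bar-type homeodomain, were sought in a promoter window reaching 1000 bp upstream and 200 bp downstream from the annotated gene start. The material was whole late-stage embryos of hermaphrodite strain OP370, which carries the unc-119(tm4063) allele and the transgene wgIs370 coding for CEH-31 with green fluorescent protein and FLAG at its C terminus. Embryos were collected 5 h after synchronization by egg bleaching, and chromatin was pulled down through the green fluorescent protein and sequenced (ChIP-seq). There were 2 biological replicates and no other group, so no comparison between conditions was possible. The labels do not name the promoter that drives the transgene. Whole animals mix all cell types, so a peak held in few cells and a weak peak held in many cannot be told apart.

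Cyclin-dependent kinases (CDKs), each switched on by a cyclin partner, drive the cell from one phase to the next, and CDK inhibitors hold it back. Before DNA is copied, the origin recognition complex and CDT-1 load the MCM helicase at origins. In mitosis, Aurora and Polo kinases build the spindle, the checkpoint holds anaphase until kinetochores are attached, and the anaphase-promoting complex then marks cyclin B and securin for destruction. Most cell divisions of the worm take place in the embryo.

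A total of 16 of the 40 genes (40.0%, 95% Wilson interval 26.3% to 55.4%) had a summit of the authors' optimal list in the promoter window, where 11.5% of all protein-coding genes had one. The optimal list holds the 3697 peaks that the authors kept at a threshold on irreproducible discovery between replicates, out of 24555 relaxed peaks called on the pooled replicates. These 3697 were the strongest by pooled signal, so a kept peak can be weak in 1 replicate. The interval covers only the number of genes and not the way they were chosen. The genes were bub-1, mdf-1 and knl-1 of the spindle checkpoint and kinetochore, emb-1 and mat-1 of the anaphase-promoting complex, mcm-4, mcm-7 and cdt-1 of replication licensing, cdk-1 and cdk-4, cye-1, cki-1 and cki-2, cdc-14 and wee-1.3, and lin-23. When each summit was given only to the gene with the nearest start among those whose window held it, 13 members (32.5%) and 8.57% of all genes had one. In the relaxed pooled list, 31 members (77.5%) had a summit, against 33.5% of all genes. In the relaxed lists of the single replicates, 29 members (72.5%) had one in replicate 1, where the share of all genes was 31.1%, and 32 (80%) in replicate 2, where it was 32.3%.

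**Figure D1:**
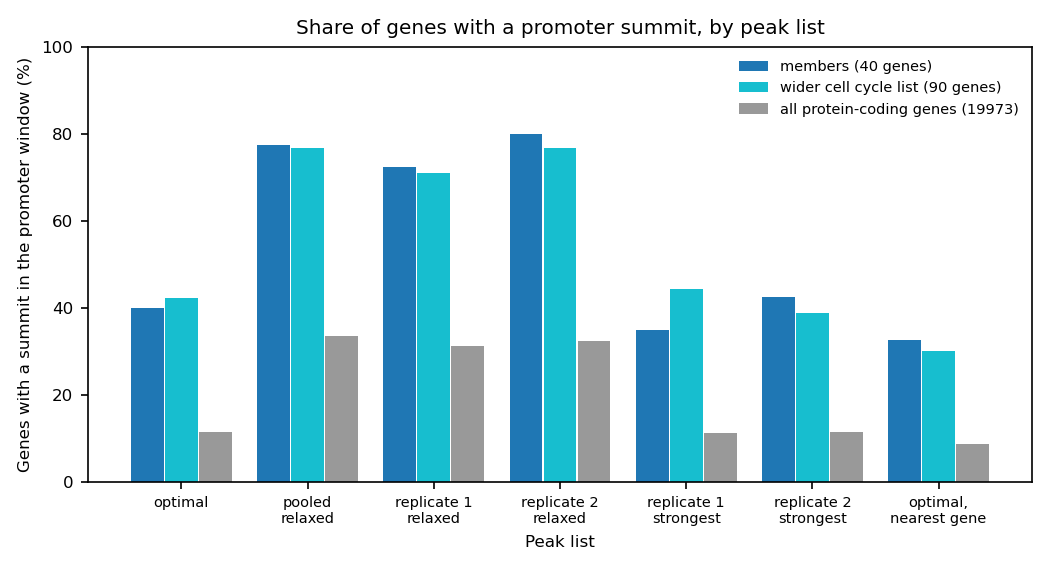
Share of genes (%) with a summit in the promoter window, by peak list, for the 40 members, the 90 genes of a wider cell cycle list and all 19973 protein-coding genes. The bars of both cell cycle lists stand above those of all genes in each list, as with 40.0% of members against 11.5% of genes in the optimal list.

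The sequences below show the DNA under the summits of 8 members from several roles, with signals from 964 at emb-1 to 97.1 at cdk-1. They include both strong and weak peaks, and not every strong one. Each is the WBcel235 (ce11) reference from 50 bp before to 50 bp after the summit, 5′ to 3′ on the strand of the member gene. Capitals mark matches on either strand to TTTGAA (the core of the cell cycle homology region, or CHR), to GGGCGG (a GC box core), to GAGAGA, or to the E2F strings TTTCGCGC, TTTCCCGC and TTTGGCGC. A sequence with no capitals held none of the strings searched. The stretches of the same length at lin-23, cki-1 and cki-2 are not printed, and they held none of these strings either.
emb-1, III:5172635-5172735, plus strand: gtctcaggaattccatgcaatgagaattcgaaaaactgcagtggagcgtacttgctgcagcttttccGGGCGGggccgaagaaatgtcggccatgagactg
knl-1, III:8250422-8250522, plus strand: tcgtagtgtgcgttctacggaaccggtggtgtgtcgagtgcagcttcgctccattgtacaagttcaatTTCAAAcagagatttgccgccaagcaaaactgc
cdk-1, III:9747304-9747404, plus strand: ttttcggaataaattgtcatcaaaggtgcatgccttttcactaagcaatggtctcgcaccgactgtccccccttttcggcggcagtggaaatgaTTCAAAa
cdk-4, X:13519223-13519323, minus strand: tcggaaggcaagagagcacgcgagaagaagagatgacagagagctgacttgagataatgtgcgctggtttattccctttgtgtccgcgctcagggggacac
wee-1.3, II:9716781-9716881, minus strand: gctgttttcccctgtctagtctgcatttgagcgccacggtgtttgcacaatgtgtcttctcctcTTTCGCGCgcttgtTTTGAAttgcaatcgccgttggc
cdc-14, II:5593678-5593778, minus strand: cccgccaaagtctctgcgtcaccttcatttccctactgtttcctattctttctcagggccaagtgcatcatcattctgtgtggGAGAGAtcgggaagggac
mdf-1, V:9544363-9544463, minus strand: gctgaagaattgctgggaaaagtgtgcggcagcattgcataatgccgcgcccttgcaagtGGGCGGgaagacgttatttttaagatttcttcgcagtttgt
mcm-7, V:4346936-4347036, plus strand: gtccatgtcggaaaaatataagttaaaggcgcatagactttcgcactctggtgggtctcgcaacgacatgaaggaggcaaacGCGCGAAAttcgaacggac

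Peak signal below is the authors' score per peak, on a scale that the sources used here do not give. A rank of 1 is the strongest peak of a list. Signals of a replicate list and of the optimal list are not on one level, since the latter come from the pooled replicates. Every one of the 16 optimal summits had a counterpart within 200 bp in both replicates. So did nearly all optimal peaks, 3690 of 3697 being found in both. The median shift of the 16 was 7.5 bp in replicate 1 (at most 63 bp) and 10.0 bp in replicate 2 (at most 40 bp). The number of reads behind a peak is unknown.

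**Figure D2:**
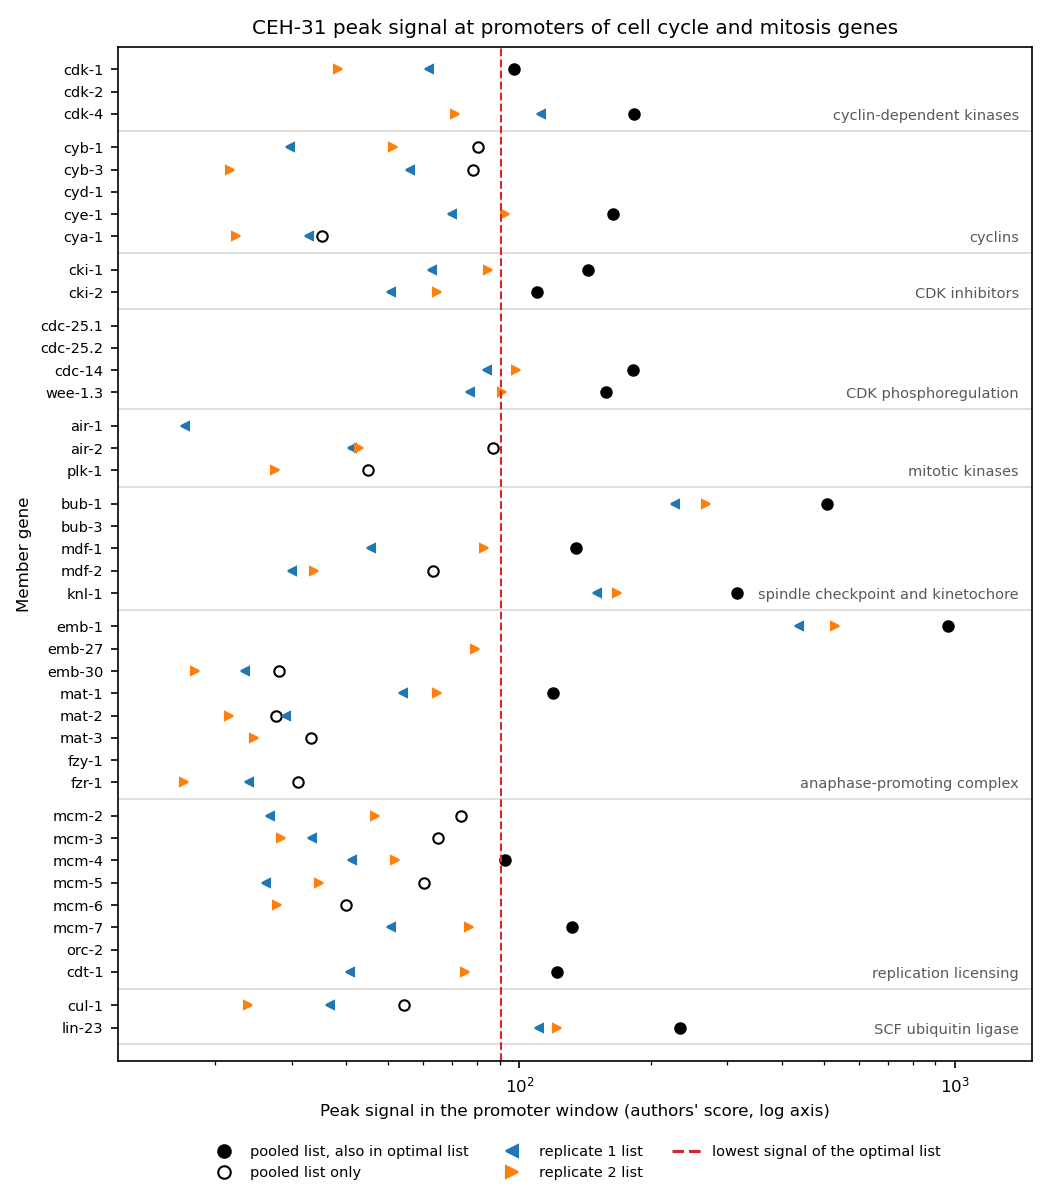
Peak signal (authors' score, log axis) in the promoter window of each of the 40 members, ordered by role. Black circles are the pooled list (filled where the peak is also in the optimal list), triangles are the replicate lists, and the dashed line is the lowest signal of the optimal list, 90.5; for members in the optimal list the triangles are the replicate peaks at the same summit, for the others the strongest in the window. Filled circles run from 92.5 at mcm-4 to 964 at emb-1, and 7 rows hold no symbol.

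The anaphase-promoting complex held the strongest peak of all members, but not at a start of its own. The summit counted for emb-1, which encodes a small subunit of the complex, had a signal of 964 and rank 10 of the optimal list (III:5172521-5172873, summit 5172685). Its signal was 438 in replicate 1 (rank 12) and 531 in replicate 2 (rank 6). This summit lay 754 bp upstream of emb-1 and only 35 bp upstream of K10D2.5, the gene before emb-1 on the same strand, and it was also 640 bp upstream of the divergent splicing factor gene prp-19. The start of emb-1 is 719 bp from that of K10D2.5, and both belong to a run of 3 genes on 1 strand with gaps of at most 500 bp. Many worm genes in such an arrangement are transcribed as an operon from the first promoter, but a run is not an operon annotation.

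The other member of the complex with an optimal summit was mat-1, the worm CDC27 gene. It had a signal of 119.6 (I:5127439-5127878), with 54.1 in replicate 1 and 64.7 in replicate 2. The summit was 458 bp upstream of mat-1 and 169 bp upstream of the divergent gene prp-31, which encodes a spliceosome protein. None of the other 6 genes of this group had an optimal summit in the window. The genes mat-2, mat-3, emb-30 and fzr-1 (the CDH1-type activator) had only weak pooled summits, with signals from 27.6 to 33.3 and ranks from 16544 to 21790. The gene fzy-1, the CDC20-type activator, had no summit in any of the 4 lists, and its start had 0 bp of DNA free of protein-coding gene models upstream.

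A summit upstream of emb-27, the CDC16 gene, was found in replicate 2 alone. There it had a signal of 79.0 and rank 1804, 250 bp upstream of the start. The nearest summit of replicate 1 was 4233 bp away and that of the pooled list 811 bp away. Only 34 of the 3697 strongest peaks of replicate 2 (0.920%) lacked a pooled summit within 200 bp.

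The spindle checkpoint and kinetochore genes gave 3 of 5 with an optimal summit, each nearest to the member itself. The strongest was that of bub-1, which encodes a checkpoint kinase of the outer kinetochore (I:7251549-7251842, 255 bp upstream). Its signal was 507 (rank 106), with 227 in replicate 1 (rank 140) and 268 in replicate 2 (rank 98). The divergent gene lin-61, a repressor with MBT domains, starts 404 bp on the other side of this summit. The gene knl-1, which encodes the kinetochore scaffold that binds microtubules and recruits BUB-1, followed with a signal of 316 (III:8250329-8250583, 160 bp upstream), 150.4 in replicate 1 and 167 in replicate 2. Both ranked among the strongest 500 peaks of each replicate, at 442 and 408 in the case of knl-1.

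The MAD1 gene mdf-1 had a weaker summit 187 bp upstream of its start (V:9544193-9544632, signal 135). It was far apart in the replicates, with 45.6 and rank 3794 in replicate 1 and 83.1 and rank 1678 in replicate 2. The MAD2 gene mdf-2, whose product binds MDF-1, had a summit only in the relaxed lists, 33 bp upstream (pooled signal 63.2, with 30 in replicate 1 and 33.7 in replicate 2). The gene bub-3, whose product pairs with BUB-1, had none in any list.

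Among the kinases that drive the cycle, cdk-1 and cdk-4 had optimal summits and cdk-2 had no summit in any list. The mitotic kinase gene cdk-1 shares a 278 bp intergenic stretch with iff-1, a translation factor gene of the eIF5A type, and the summit lay 118 bp from the start of cdk-1 and 161 bp from that of iff-1 (III:9747134-9747573). Its signal of 97.1 placed it at rank 3408 of 3697, near the lower end of the optimal list. Replicate 1 gave 62.0 (rank 2387) and replicate 2 gave 38.4 (rank 5152), so only replicate 1 had it among its strongest 3697. The gene cdk-4, which acts with cyclin D in G1, had a signal of 183 (X:13519053-13519492, 362 bp upstream), with 112 in replicate 1 and 71.2 in replicate 2. Its summit lay about midway between cdk-4 and the divergent gene F18H3.1, which starts 390 bp away. Among the 16 optimal summits, these were the only ones with a higher signal and a better rank in replicate 1 than in replicate 2.

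Of the 5 cyclin genes, only the cyclin E gene cye-1 had an optimal summit in its window (I:6780007-6780446, signal 164). The summit was 572 bp upstream of cye-1 and 76 bp upstream of the divergent gene pqn-21, and its signal was 69.9 in replicate 1 and 92.8 in replicate 2. A second and stronger optimal summit lay inside cye-1, in an intron 1004 bp downstream of the start (signal 312, rank 436). The cyclin B genes cyb-1 and cyb-3 fell just under the optimal list, and each was strong in 1 replicate only. For cyb-1 the pooled signal was 80.3, with 29.7 in replicate 1 (rank 7494) and 51.2 in replicate 2 (rank 3446). For cyb-3 it was 78.2, with 56.2 in replicate 1 (rank 2763) and 21.7 in replicate 2 (rank 13434). In their windows, the cyclin A gene cya-1 had weak summits at 35.3 or less in the pooled list, and the cyclin D gene cyd-1 had none. Outside the window, cyd-1 had relaxed pooled summits 233 bp downstream (signal 37.9) and 1801 bp upstream (74.4). Those of cya-1 were 1564 and 1818 bp upstream (48.3 each).

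Both CDK inhibitor genes of the CIP/KIP family had an optimal summit, in the longest stretches of upstream intergenic DNA among the 16. The gene cki-1, which holds blast cells in G1, had a signal of 144 at 241 bp upstream (II:7810779-7811218), with 63.0 in replicate 1 and 84.6 in replicate 2. The next gene upstream of cki-1 is 16917 bp away. Its neighbour cki-2 had a signal of 109.6 at 842 bp upstream (II:7815437-7815876), with 50.7 and 64.8. No other protein-coding gene had either summit in its window, but the cki-2 summit was 164 bp from the start of the noncoding gene T05A6.19.

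Of the genes that set the phosphorylation of CDKs and their targets, the phosphatase gene cdc-14 and the Myt1-type kinase gene wee-1.3 had an optimal summit. For cdc-14 the signal was 182 (II:5593508-5593947, 301 bp upstream), with 84.2 in replicate 1 and 98.2 in replicate 2. A stronger optimal peak (signal 335) lay 1010 bp upstream of cdc-14, outside the window, and fell in the window of the divergent gene ttc-4. For wee-1.3 the signal was 158 (II:9716611-9717050, 364 bp upstream), with 77.0 and 91.1. The CDC25 phosphatase genes cdc-25.1 and cdc-25.2, which counter WEE-1.3, had no summit in the window in any list. The gene cdc-25.2, which spans 18457 bp, held a pair of optimal summits in its introns, 3739 and 8846 bp downstream of the start (signals 124 and 95.3).

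The mitotic kinases were the only one of these groups with no optimal promoter summit, in 3 members. The Aurora B gene air-2 came closest, with a pooled signal of 87.1 at 65 bp upstream and almost equal values of 41.2 in replicate 1 and 42.9 in replicate 2. The Polo-like kinase gene plk-1 had a pooled signal of 45.0 and a summit in replicate 2 alone (27.5). The Aurora A gene air-1 had only a replicate 1 summit, of signal 17.1 and rank 19578.

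In replication licensing, 3 of 8 genes were in the optimal list, all of modest signal. All 6 genes of the MCM helicase ring, which unwinds DNA at the fork, had a relaxed pooled summit, where 33.5% of all genes had one. The strongest at each gene lay between 136 and 293 bp upstream. Their pooled signals were 132 at mcm-7, 92.5 at mcm-4, 73.3 at mcm-2, 64.9 at mcm-3, 60.5 at mcm-5 and 40.0 at mcm-6. Only the first 2 passed the authors' threshold, and mcm-6 had no summit in the window in replicate 1. For mcm-7 (V:4346766-4347205) the replicates gave 50.7 and 76.7, and for mcm-4 (I:2321760-2322199) 41.2 and 51.7, with ranks of 4410 and 3393. The mcm-7 summit was also in the windows of the divergent genes hpo-18 and figl-1. Downstream of the start, 40 bp into its 5′ UTR, cdt-1 had the only optimal summit inside its own gene model among the 16 (I:3227844-3228283, signal 122, with 40.9 and 74.9).

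The origin recognition gene orc-2 had no summit in its window, yet stood next to one of the stronger peaks near any member. It is the last of a run of 2 genes on 1 strand. The window of the first gene, copz-1, which starts 1052 bp from orc-2, held an optimal peak of signal 396, with the summit 1192 bp upstream of orc-2. That summit was nearest to the start of cyn-4.

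The ubiquitin ligase of SCF type was represented by its scaffold cul-1 and the F-box gene lin-23, a negative regulator of cell division. The lin-23 summit was the fourth strongest of the members (II:6370252-6370432, signal 234, rank 802), with 111 in replicate 1 and 122 in replicate 2. At 976 bp upstream it was just inside the window, 450 bp from the start of the noncoding gene linc-27, and in the window of no other protein-coding gene. The gene cul-1 had a pooled signal of 54.2, with 36.8 in replicate 1 and 23.8 in replicate 2.

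Across the 16 summits, the 3 strongest kept their order in both replicates, emb-1, bub-1 and then knl-1. Below them the order changed with the replicate. The ranks in the 2 replicates had a Spearman coefficient of 0.75 over these 16 summits. It describes peaks that were kept by their signal in the pool of these same 2 replicates. In 14 of 16 the signal was higher and the rank better in replicate 2. Of the 3690 optimal peaks found in both replicates, a smaller share, 61.5%, had the higher signal in replicate 2. This difference was not tested. With as many peaks per replicate as the optimal list holds, 14 members (35.0%) had a summit in replicate 1, where 11.3% of all genes had one. In replicate 2 the count was 17 (42.5%), where the share of all genes was 11.5%. Of the 16, 12 were among the strongest of both replicates, and cdk-1, mdf-1, mcm-4 and cdt-1 of 1 replicate only. This count has no share over all optimal peaks beside it.

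**Figure D3:**
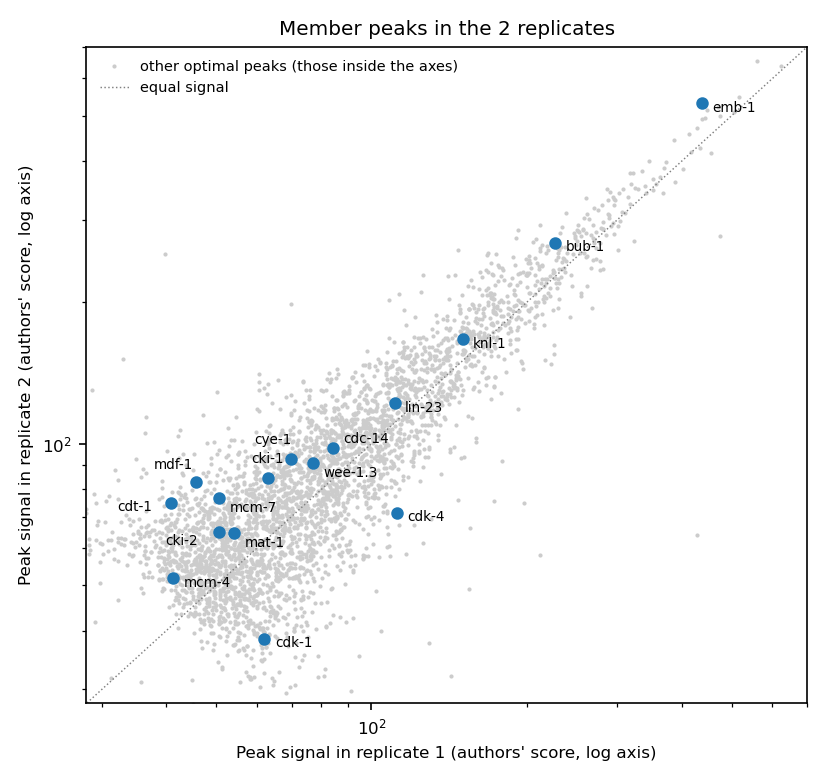
Peak signal (authors' score) in replicate 1 against replicate 2, both on log axes, for the 16 member summits (blue, named) and the other optimal peaks found in both replicates (grey). The dotted line marks equal signal; 14 of the 16 lie above it, and cdk-1 and cdk-4 lie below.

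The member peaks were not stronger than other promoter peaks. Their median signal was 151 (middle 50% from 122 to 196), and that of all 1775 optimal summits in promoter windows was 165 (119 to 249). Only 6 of the 16 were above the latter median, and 8 were in the weaker 50% of the optimal list. The optimal list ended at a signal of 90.5. Just inside it were mcm-4 at 92.5 and cdk-1 at 97.1, and just outside were air-2 at 87.1, cyb-1 at 80.3 and cyb-3 at 78.2.

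Most of the summits also lay in the promoter window of a neighbouring gene, which need not mean that they lay in intergenic DNA common to both genes. Of the 16, 15 were intergenic, and 10 were within 400 bp upstream of the member's start. Neither count has a share over all optimal promoter summits beside it. Measured to the nearest start among protein-coding genes whose window held the summit, the median distance upstream was 184 bp for the 16. For all optimal promoter summits it was 200 bp. The quartiles were 149.5 and 316 bp for the 16, and 104 and 376 bp for all. By this measure the 16 were about as close to a start as promoter summits in general. A total of 9 lay in more than 1 gene's window (56.2%), and each of these 9 had a divergent partner, upstream of which it also lay. Of all optimal promoter summits 33.4% lay in more than 1 window, but this share counts each summit once. The 16 were reached through genes, and a summit in several windows can be reached through more genes. The 2 shares were therefore not read as a difference. Among protein-coding genes the member's start was the nearest in 13 cases, and for cye-1, emb-1 and mat-1 another was nearer. At cki-2 and lin-23 the start of a noncoding gene was nearer than the member, at 164 and 450 bp. The median distance from a member's start to the next protein-coding gene upstream was 699 bp for the 16 and 624 bp for the 24 members without an optimal summit. For all protein-coding genes it was 937 bp, and for all those with an optimal summit 666 bp.

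**Figure D4:**
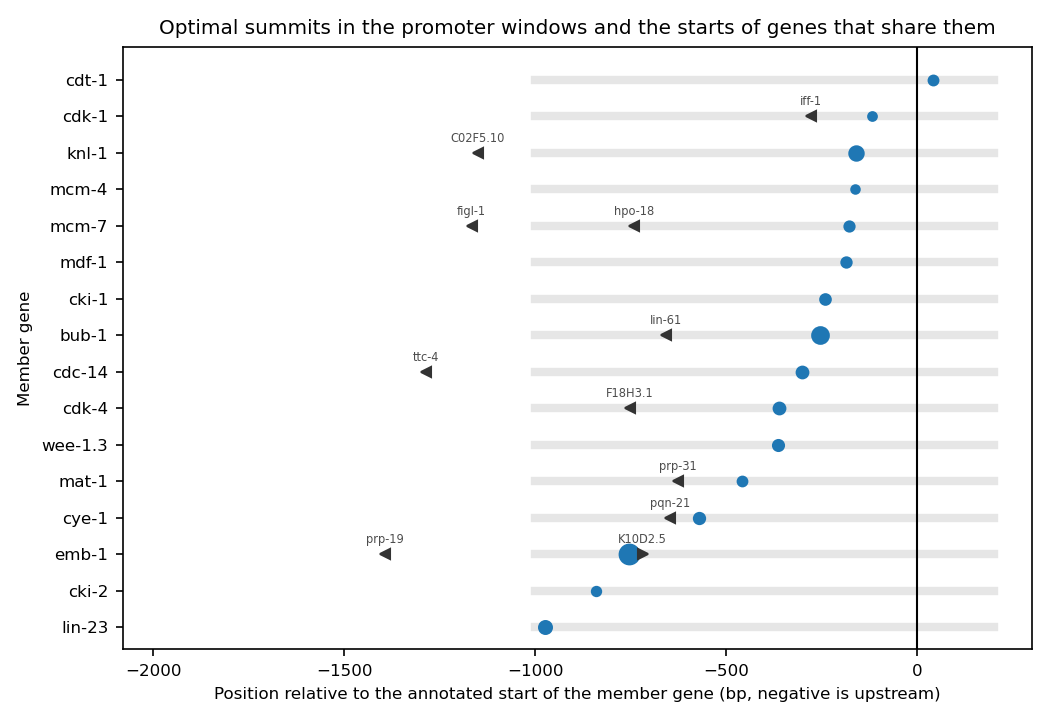
Position of each optimal summit (blue circle, larger with higher signal) relative to the annotated start of the member gene in bp, with the promoter window in grey. Dark triangles mark the starts of other genes whose window holds the same summit and point in their direction of transcription; for emb-1 the start of K10D2.5 is 35 bp from the summit, and for lin-23 the summit is 976 bp upstream.

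Arrangement in runs of genes left the count nearly as it was. Of the 33 members first or alone in a run, 12 had an optimal summit, where 12.7% of all such genes had one. Of the 7 members later in a run, mdf-1, knl-1, emb-1 and mcm-4 had one in their own window, where 6.62% of all later genes had one. Among mat-3, mcm-5 and orc-2, the later members without one, only orc-2 had an optimal summit at the first gene of its run. For all genes in that position the share was 22.3%.

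Inside gene bodies, beyond the promoter window, 4 of the 40 members held 5 optimal summits, where 3.93% of all genes held at least 1. Beside those of cye-1 and cdc-25.2, these were in an intron of mcm-2 (signal 117, 4175 bp downstream of the start) and in the 3′ UTR of mdf-2 (93.5, 1248 bp downstream). Each of these 5 lay in no promoter window. Of the 24 members with no optimal promoter summit, orc-2, mdf-2 and fzr-1 had the closest optimal summits, at 1192, 1248 and 1839 bp, and cyb-3 the most distant, at 69531 bp.

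By chromosome, 5 of 8 members on I had an optimal promoter summit, where 16.5% of genes on I did. The counts were 5 of 13 on II (10.5% of genes), 3 of 10 on III (17.4%), 0 of 2 on IV (9.94%) and 2 of 6 on V (6.97%). The single member on X, cdk-4, had one, where 12% of genes on X did.

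Strings known from cell cycle promoters were found at a larger share of the 16 member summits than of all optimal promoter summits. This difference was not tested. E2F factors bind TTTCGCGC, TTTCCCGC and TTTGGCGC, and at least 1 of these occurred within 100 bp of 5 of 16 summits (31.2%), those of cye-1, wee-1.3, mcm-4, mcm-7 and cdt-1. Of all optimal promoter summits 6.99% held one. The CHR core TTTGAA, through which the DREAM complex acts on cell cycle genes in mammals and worms, occurred at 10 of 16 (62.5%) and at 34.0% of all. Within 200 bp it was at 11 of 16 and at 61.8% of all, so the gap was smaller in the wider window. The strings TAATTG and TAAACG, which Bar homeodomains are known to bind, each occurred at 2 of 16 (12.5%), against 11% and 7.38% of all. GAGAGA was found at 5 (31.2%, against 38.6%) and GGGCGG at 3 (18.8%, against 12.5%). Both strands were searched, and none of the strings contains another. The GC content of these windows had a median of 45.0% for the members and 43.8% for all optimal promoter summits. Such a match is a description of the sequence and not evidence of binding.

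**Figure D5:**
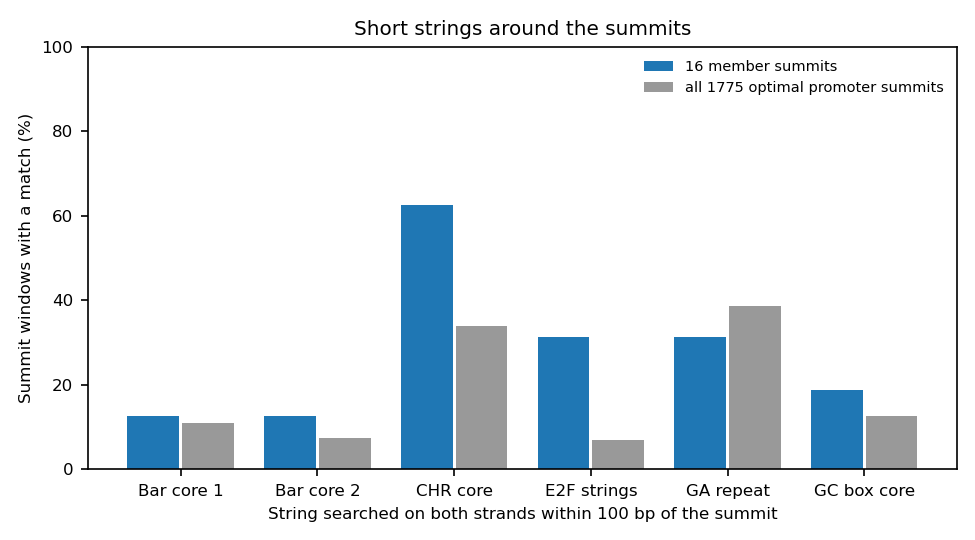
Share of summit windows (%) with a match to each string on either strand within 100 bp, for the 16 member summits and all 1775 optimal promoter summits. Bar core 1 is TAATTG, Bar core 2 TAAACG, CHR core TTTGAA, GA repeat GAGAGA and GC box core GGGCGG; the blue bar is 31.2% and the grey bar 6.99% for the E2F strings.

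Promoters of fixed size, from 250 bp before to 50 bp after the gene start, gave another view of the same strings. The E2F strings were in 10 of the 40 member promoters (25%) and in 3.56% of all 19973 promoters. They were in 3 of the 16 members with an optimal summit (18.8%) and in 7 of the 24 without (29.2%), namely cdk-2, cyd-1, cdc-25.2, bub-3, mcm-3, mcm-5 and mcm-6. Over all genes the order was the reverse, with 6.87% of those with an optimal summit and 3.13% of those without. TTTGAA was in 67.5% of member promoters and in 62.6% of all promoters, so at this scale the members were near the share of all genes. TAATTG was in 1 of the 16 members with a summit and in 7 of the 24 without, against 23.6% of all promoters. TAAACG was in similar shares of both, 4 of the 16 (25%) and 5 of the 24 (20.8%). It was in 10.8% of all promoters and in 12.6% of those of all genes with an optimal summit.

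A wider list of 90 other cell cycle genes gave a share like that of the members. It covered, among others, kinetochore, cohesin, condensin, centriole, replication fork and ubiquitin ligase genes. It also held further CDK genes such as cdk-5, cdk-7, cdk-8, cdk-9 and cdk-12. Of these, cdk-5, cdk-7 and cdk-9 are among the 38 genes counted below. This list too was chosen with earlier results of these data known. In it 38 genes (42.2%, 95% Wilson interval 32.5% to 52.5%) had an optimal promoter summit, again beside 11.5% of all genes. In 27 the gene was the nearest to the summit among the protein-coding genes whose window held it. The strongest was at mcm-10, a replication initiation factor gene (signal 713, rank 27, 260 bp upstream), with 356 in replicate 1 and 357 in replicate 2. Next came the centriole assembly gene sas-4 (595), the cohesin gene smc-3 (458), the condensin gene hcp-6 (446), the survivin gene bir-1 (406) and the CLASP gene cls-2 (390.4). The summits of sas-4, smc-3 and cls-2 were nearer to F10E9.11, mib-1 and R107.5. Of the 40 members, emb-1 (964) and bub-1 (507) had signals above the lowest of these 6.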

How the data were processed

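ChIP-seq peak lists in ce11 coordinates were used: the optimal list, the pooled relaxed list and a relaxed list per replicate. Per the text deposited beside them, relaxed peaks were called for each replicate and for both pooled, with a control, and irreproducible discovery rate then gave the optimal list. No source used here names the caller, aligner or threshold. The deposited signal is a score on an unstated scale and was used for ranks and side-by-side values. The −log10 q that the authors deposited was not tested. Summits are start plus offset, written 1-based. The 3697 optimal peaks were the strongest 3697 of the pooled list. Peak lists hold no counts, so depth is unknown.

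Genes and starts are from Ensembl release 115 and sequences from RefSeq, both WBcel235, the same assembly as ce11. Many worm starts are trans-splice sites. The members, the wider list (91 names, smc-1 absent) and the rules were chosen with earlier results of these data known, so lists are described by counts beside the share of all genes and no test was run. Every member is named, and of the wider list the 6 strongest. Alternatives changed the window, peak strength, replicate, gene assignment, matching distance, run gap and motif window. Window assignment was tested on simulated data. Python 3.11.15 with pandas 2.3.3 and scipy 1.17.1 was used.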

Additional observations from a re-analysis of the deposited data

How the results depend on the processing

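The count of 16 members was within 1.5 times of its value with every alternative run except the stronger 50% of the optimal peaks, which left 8 members, beside 6.83% of all genes. It was 12 (8.98% of all genes) with a window of 500 to 100 bp, where cye-1, cki-2, emb-1 and lin-23 were lost, and 18 (15.3%) with 2000 to 500 bp, where fzr-1 and orc-2 were gained. It ranged from 14 to 17 when 1 replicate was left out: without replicate 1, cyb-1 and emb-27 were gained and cdk-1 was lost, and without replicate 2, cyb-3 was gained and mdf-1, mcm-4 and cdt-1 were lost. Peak intervals or transcript starts in place of summits or gene starts left 16. The genes cdk-4, cdc-14, wee-1.3, bub-1 and knl-1 had a summit in all 8 alternatives. The count of the wider list fell to 21 with the stronger 50% of peaks and otherwise ranged from 27 to 43. Members whose summit was nearer to another protein-coding gene numbered 3, and 1 and 5 with the narrower and the wider window. By construction, fewer peaks or narrower windows give fewer genes. The relaxed pooled count was 26 with the narrower window (23.9% of all genes), 35 with the wider (46.2%) and 34 with transcript starts (36.5%). The 12 summits among the strongest of both replicates did not change with matching at 100 or 400 bp. With 50 bp either side, the E2F strings were at 4 of 16 member summits (4.11% of all promoter summits) and TTTGAA at 6 (17.2%). With 200 bp they were at 5 (9.13%) and 11 (61.8%), the latter near the share of all. No paired analysis was possible because both replicates form 1 group. Peak lists without read counts give no error per peak, and with 2 replicates a difference in signal between them has no test.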
